A study of Mus musculus with 18 samples.

Results

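The 8 genes described here encode acute phase proteins, most of them secreted, whose synthesis goes up in injured or inflamed tissue. They are Lcn2 (lipocalin 2), the serum amyloid A genes Saa1, Saa2 and Saa3, the serine protease inhibitors Serpina3n and Serpina3g, Hp (haptoglobin) and Orm1 (orosomucoid 1), and they make up 8 of the 32285 gene rows in each count matrix. All 8 symbols were found in all 10 mRNA matrices. The genes were chosen from their measured values in these libraries, with the contrast of expanded and control skin in view. The values in that contrast are therefore given as a description, and no conclusion is drawn from how many of the genes differed. The data are droplet single-cell RNA-seq counts (10x Genomics 3′ chemistry) of live cells sorted from mouse back skin. Every mouse had surgery with an incision near the tail and a tunnel under the skin to the neck. In expanded mice a hydrogel expander was stitched in place under the skin, and control mice got no expander. The labels give no strain, sex or age. Each arm had 2 libraries at day 1, 2 at day 2 and 1 at day 4, numbered by sequencing round, and each library pooled the cells of several mice. The title of the second day 1 control mRNA library calls it hashing, and that of its hashing library calls it skin. Their library type labels were followed.

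Acute phase proteins are best known from the liver, where interleukin 6 and interleukin 1 drive them through STAT3, NF-kappaB and C/EBP factors, but several are also made locally by epithelium, endothelium, fibroblasts and white blood cells. Lipocalin 2 binds iron-loaded bacterial siderophores and is a granule protein of neutrophils. Serum amyloid A proteins associate with high-density lipoprotein and attract leukocytes, and Saa3 is the form made mainly outside the liver in mice. Serpina3n inhibits serine proteases such as granzyme B and neutrophil elastase, Serpina3g is an intracellular inhibitor of cathepsins, haptoglobin captures free hemoglobin and orosomucoid 1 is a plasma carrier of small lipophilic molecules.

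The genes lie on 5 chromosomes of the mouse genome (build GRCm38, which is mm10, with GENCODE M21 gene models). Lcn2 spans chr2:32384633-32388252 on the minus strand, Orm1 spans chr4:63344560-63348163 on the plus strand and Hp spans chr8:109575128-109579172 on the minus strand. The serum amyloid genes are neighbours on chromosome 7, with Saa3 at chr7:46711998-46715700 (minus), Saa1 at chr7:46740497-46742980 (minus) and Saa2 at chr7:46751790-46754313 (plus). The serpins are both on chromosome 12, with Serpina3g at chr12:104236245-104241939 and Serpina3n at chr12:104406729-104414329, both on the plus strand. Close copies matter for the counting of short 3′ reads. The main transcripts of Saa1 and Saa2 were 94.4% identical over 606 aligned bases, those of Orm1 and Orm2 91.0% and those of Serpina3g and Serpina3f 88.8%, whereas Saa1 and Saa3 were 76.0% identical. Over the last 300 bases, at the 3′ end, Orm1 and Orm2 were 97.7% identical, Saa1 and Saa2 94.3% and Serpina3g and Serpina3f 86.0%. How the counts were split between such copies is uncertain, so Saa1 and Saa2 are best read together.

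The promoters of the lipocalin and serum amyloid genes are shown because these 4 genes were all higher in expanded fibroblast-like cells. Each line is the 250 bases before the RefSeq transcription start (table of build GRCm38.p6), written 5′ to 3′ on the gene's strand, with matches to the C/EBP letters TTNNGNAA and to the NF-kappaB pattern, GGG and CC with any 5 bases between them, on either strand, in capitals.
Lcn2: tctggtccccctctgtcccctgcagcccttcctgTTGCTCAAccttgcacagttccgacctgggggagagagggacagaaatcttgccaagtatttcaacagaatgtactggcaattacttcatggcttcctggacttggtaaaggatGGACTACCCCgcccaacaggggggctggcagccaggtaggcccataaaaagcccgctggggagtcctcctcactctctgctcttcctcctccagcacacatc
Saa3: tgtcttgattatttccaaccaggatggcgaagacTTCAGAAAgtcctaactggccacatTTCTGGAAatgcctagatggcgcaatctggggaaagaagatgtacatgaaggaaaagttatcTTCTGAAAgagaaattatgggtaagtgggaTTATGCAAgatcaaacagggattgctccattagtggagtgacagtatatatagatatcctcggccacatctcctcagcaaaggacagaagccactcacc
Saa1: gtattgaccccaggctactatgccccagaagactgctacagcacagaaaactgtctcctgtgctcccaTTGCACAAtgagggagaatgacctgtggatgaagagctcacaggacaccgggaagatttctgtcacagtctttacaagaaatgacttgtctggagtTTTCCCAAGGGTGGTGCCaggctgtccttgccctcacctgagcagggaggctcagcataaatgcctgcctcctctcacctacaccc
Saa2: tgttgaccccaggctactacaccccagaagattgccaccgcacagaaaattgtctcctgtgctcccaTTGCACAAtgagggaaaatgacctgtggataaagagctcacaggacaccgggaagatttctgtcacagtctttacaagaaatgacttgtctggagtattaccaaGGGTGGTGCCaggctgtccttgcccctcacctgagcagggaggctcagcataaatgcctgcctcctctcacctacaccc
The windows are chr2:32387740-32387989 for Lcn2, chr7:46715677-46715926 for Saa3, chr7:46742981-46743230 for Saa1 and chr7:46751583-46751832 for Saa2. The Saa1 and Saa2 windows were 95.6% identical over 249 aligned bases. The Saa3 window held 4 C/EBP matches and no NF-kappaB match, and the other 3 windows held both kinds. Over the 6 genes with a promoter in the table (these 4, Serpina3g and Serpina3n), the C/EBP letters occurred in 6 and the NF-kappaB letters in 5. The same letters occurred in 36.8% and 45.8% of all 32851 promoters, so they are common, and a match is not evidence of a bound factor. STAT3 letters (TTCNNNGAA) occurred in 1 of the 6, Serpina3g, against 7.02% of all promoters, and the TATA box letters TATAAA in none, against 12.4%. Hp and Orm1 were not in the promoter table.

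After filtering, the libraries held 1860 to 7987 cells with a median of 6327 to 12755 UMIs (unique molecular identifiers, each a counted mRNA molecule) per cell. The cells were grouped into 39 clusters without using the 8 genes, and clusters were named from marker genes as 16 classes, written with the ending -like. Clusters that met no marker rule held 15.4% of the cells. Levels are in CPM, the usual depth-scaled count (the UMIs of a gene over all UMIs of the class in a library), for classes with at least 20 cells there. A difference was called when edgeR's quasi-likelihood test on the summed counts, with day as a factor, gave an adjusted p of at most 0.05 over all genes of the class. Comparisons within a class rest partly on which clusters fill it. Cluster 0, led by Col1a1 and Cpz, was 38.0% of control but 6.75% of expanded fibroblast-like cells, cluster 1 (Igfbp2, Grem1) was 20.6% and 47.8%, and cluster 29 (Apod, Ccl11) was 2.81% and 17.3%. Among macrophage or monocyte-like cells, cluster 3 (Chil3, Ly6c2) was 8.39% of control and 80.8% of expanded cells, and cluster 8 (Ccl8, Cd209f) was 51.5% and 4.55%. Values within clusters are therefore given for Lcn2, Saa1, Saa3 and Serpina3n in fibroblast-like cells. They are also given for Lcn2, Saa3 and Hp in macrophage or monocyte-like cells. What part the cluster make-up had in the other values of these classes was not tested. Before doublets were removed, 526 of 47251 kept barcodes had a sequence that occurred in more than 1 library. Of 6 hepatocyte markers, looked at because the liver makes most of these proteins, Alb and the others summed over all cells stayed at or under 2.6 CPM in every library.

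Over whole libraries, 5 of the 8 genes were called and all 5 were higher in expanded skin, where 26.3% of all genes were called in either direction. Lcn2 was at 6.53 and 19.5 CPM in the day 1 controls, 3.82 and 20.6 in the day 2 controls and 17.6 in the day 4 control, against 86.5 and 169, 109 and 172, and 342 CPM in the expanded libraries of the same days. The arms did not overlap, and the log2 fold change was 3.43 ± 0.45 (SE, n = 5 and 5 libraries). Saa1 (3.75 ± 0.55), Saa2 (3.58 ± 0.55), Saa3 (2.62 ± 0.74) and Hp (2.48 ± 0.32) were the others on the same scale. The Saa3 call was lost without either day 1 control (2.24 and 2.63), the second day 1 expanded (2.31), the second day 2 expanded (2.73), the day 4 control (2.92) or the day 4 expanded library (2.93). Orm1, Serpina3n and Serpina3g were not called, with log2 fold changes of 1.68 ± 0.61, -0.56 ± 0.30 and -0.28 ± 0.16. In such sums more cells of a type and more RNA per cell cannot be told apart, and neutrophil-like cells, for example, were 0.381% of control and 7.10% of expanded cells. Without the neutrophil-like cells the same 5 genes were called.

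**Figure D1:**
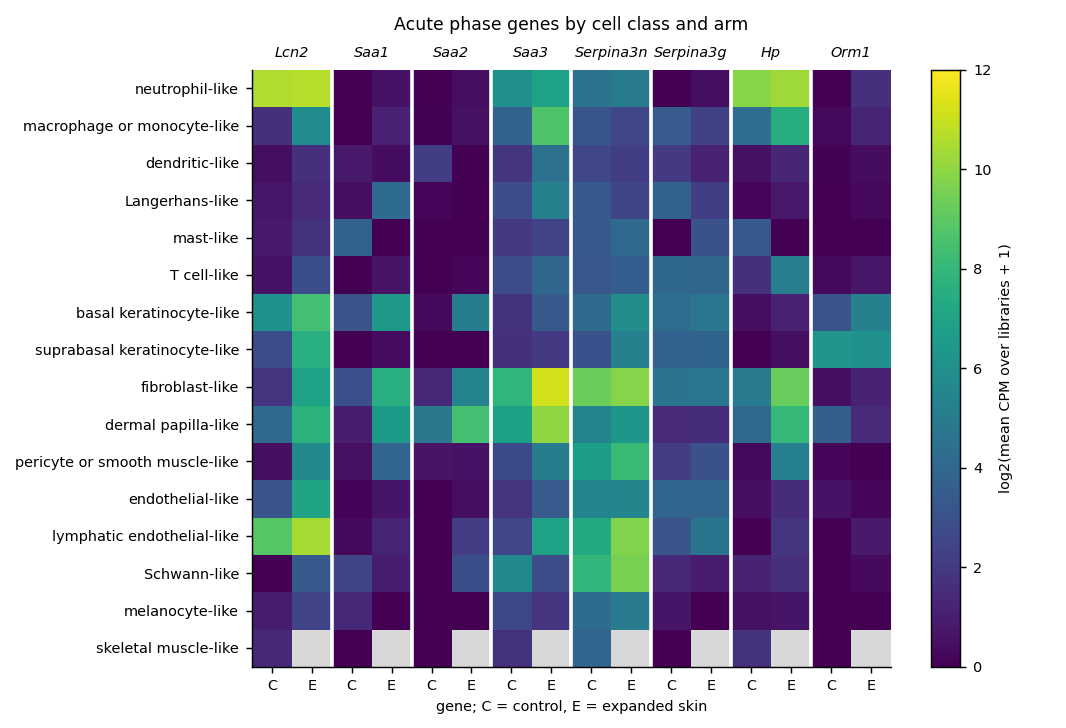
Colour gives log2(mean CPM + 1) of each gene (columns, control C and expanded E) in each cell class (rows), averaged over the libraries with at least 20 cells of the class, with grey where there was none. Lcn2 and Hp are brightest in neutrophil-like cells, Lcn2 also in lymphatic endothelial-like cells, Saa3 and Serpina3n in fibroblast-like cells and Orm1 in suprabasal keratinocyte-like cells.

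Within classes, 29 pairs of gene and class had enough counts to test, and 15 were called, all higher in expanded skin. The calls were 4 of 7 tested genes in fibroblast-like cells (34.8% of all genes called in that class), 3 of 6 in basal keratinocyte-like (7.87%), 3 of 5 in macrophage or monocyte-like (22.1%), 2 of 3 in lymphatic endothelial-like (11.9%), 1 of 3 in endothelial-like (12%), 1 of 1 in dendritic-like (17%) and 1 of 1 in pericyte or smooth muscle-like cells (18.8%). No gene was called in Schwann-like (1 tested, 0.213%) or T cell-like cells (2 tested, 0.177%). Because the genes were chosen on this contrast, the share is not set against that background. The genes that passed the count filter did so partly through the arm where they were high. By gene, the calls were Lcn2 in 5 of 5 classes tested, Saa3 in 4 of 5, Serpina3n in 3 of 7, Saa1 in 1 of 2, Saa2 in 1 of 1, Hp in 1 of 2, Serpina3g in 0 of 6 and Orm1 in 0 of 1.

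Lcn2, the siderophore-binding protein, had its highest mean over libraries in neutrophil-like cells. Neutrophil-like cells were at 3329, 428 and 776 CPM in the 3 control libraries with 20 or more of them (day 1, 2 and 4) and at 2379, 2615, 947, 1024 and 1067 CPM in the expanded libraries. The arms overlapped, and this class had too few control libraries to test. Lymphatic endothelial-like cells came next by mean and expressed Lcn2 in both arms. They were above neutrophil-like cells in the first day 1 expanded and the second day 2 control library. Their controls were at 579 and 678 CPM at day 1, 296 and 485 at day 2 and 239 at day 4, and the expanded libraries were at 2846 and 2065, 475 and 1014, and 544 CPM. All 5 expanded libraries were above the control of their day and round, although the first day 2 and the day 4 expanded libraries lay below both day 1 controls, and the log2 fold change was 1.29 ± 0.24. Lcn2 was also spread over most cells of this class, with a UMI in 53.8% of control and 79.2% of expanded cells (46.4% and 69.0% after thinning each cell to 2000 UMIs). In mast-like cells the unthinned shares were 0.17% and 1.06%.

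In blood vessel endothelial-like cells Lcn2 was high at day 1 only. Expanded libraries were at 136 and 492 CPM at day 1 but at 3.56, 4.26 and 9.34 CPM afterwards, and controls were between 1.65 and 13.2 CPM throughout. The 2 day 1 expanded libraries alone stood above the controls. In the 2 clusters of this class, the venular one (cluster 32, led by the selectins Selp and Sele) was at 241 and 1623 CPM and the other (cluster 5, led by Rbp7 and Flt1) at 121 and 304 CPM in those libraries. The class was called (log2 fold change 2.97 ± 0.81), but the call was lost without either day 1 control (2.27 and 2.13), without the second day 1 expanded (1.84) or the first day 2 control library (3.01), and with DESeq2 (1.62).

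Lcn2 in basal keratinocyte-like cells was at 33.7 and 63.2 CPM at day 1, 46.7 and 62.5 at day 2 and 143 at day 4 in controls, and at 79.6 and 84.4, 375 and 166, and 984 CPM in expanded skin. Each expanded library was above its control, the arms overlapped, and the log2 fold change was 1.72 ± 0.35. The call was lost without the first day 1 control (1.71), the day 4 control (1.42) or the day 4 expanded library (1.42). Levels were higher in cluster 9, led by Ly6d, Apoc1 and Fgfbp1, than in cluster 2. In cluster 9 Lcn2 was 79.7 to 357 CPM in controls and 107 to 1586 CPM in expanded skin. Cluster 2, led by Krt24, Krt15 and Lhx2, was at 0 to 6.22 CPM in controls and 21.3 to 143 CPM in expanded skin, a range that did not overlap. Suprabasal keratinocyte-like cells, with 4 control and 3 expanded libraries, went from 0, 0.779, 8.54 and 14.7 CPM to 127, 127 and 319 CPM, again without overlap and without a test.

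In fibroblast-like cells Lcn2 was nearly absent from controls, at 0.385 and 0.81 CPM at day 1, 0.124 and 6.61 at day 2 and 4.39 at day 4. Expanded libraries were at 11.5 and 56.9, 37.5 and 306, and 215 CPM. The arms did not overlap and the log2 fold change was 5.44 ± 0.73. The difference was also present within cluster 1, which has at least 29 cells in every library, where Lcn2 went from at most 6.41 CPM in controls to between 3.74 and 256 CPM in expanded libraries, with 1 expanded library inside the control range. Macrophage or monocyte-like cells went from 0.37 to 5.62 CPM to 14.4 to 110 CPM (log2 fold change 4.54 ± 0.56, no overlap). Within cluster 3 of that class Lcn2 was 3.88 to 101 CPM in 4 control libraries and 17.1 to 176 CPM in 5 expanded libraries, which overlapped, and in clusters 8 and 11 it was at most 7.79 CPM in either arm. Dermal papilla-like cells, in too few libraries to test, were at 27.3, 17.7 and 3.98 CPM in controls and at 123, 177, 127 and 416 CPM in expanded skin. Pericyte or smooth muscle-like cells were at 0 in 4 of 5 controls and at 8.75 to 121 CPM in expanded libraries, but did not pass the count filter.

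**Figure D2:**
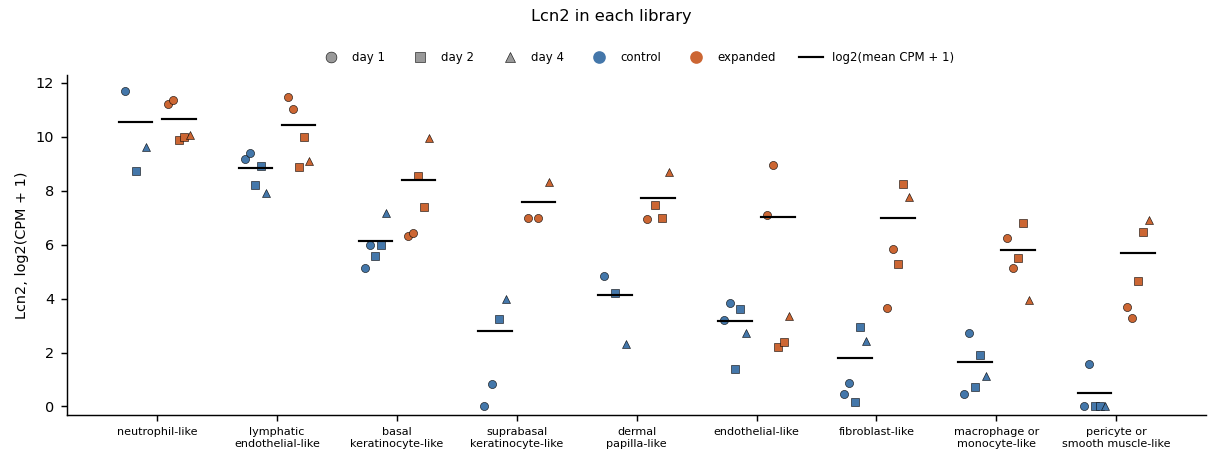
Each point is the level of Lcn2, as log2(CPM + 1), in 1 library (shape by day, colour by arm) for 9 cell classes, and bars mark log2(mean CPM + 1). In endothelial-like cells the 2 day 1 expanded libraries stand apart from all others, whereas in basal keratinocyte-like cells the day 4 expanded library is the highest.

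Lcn2 was also set beside the calprotectin genes S100a8 and S100a9, the most abundant transcripts of neutrophils. Their sum was 57230 to 143400 CPM in neutrophil-like cells. In the expanded libraries it was 2.42 to 147.5 CPM in fibroblast-like, 0 to 30.1 in lymphatic endothelial-like, 3.12 to 24.2 in endothelial-like and 225 to 1689 in macrophage or monocyte-like cells. Relative to neutrophil-like cells of the same library, the Lcn2 UMIs per UMI of S100a8 and S100a9 were 27.2 to 3577 times higher in expanded fibroblast-like cells, at least 1686 times higher in lymphatic endothelial-like cells wherever the sum was not 0, 22.3 to 2629 times higher in endothelial-like cells and 1.88 to 8.79 times higher in macrophage or monocyte-like cells. In Langerhans-like cells it was 0 to 7.90 times that of neutrophil-like cells and in pericyte or smooth muscle-like cells 0.445 to 2023 times. S100a8 exceeded S100a9 in macrophage or monocyte-like cells of all 5 expanded libraries, whereas S100a9 exceeded S100a8 in their neutrophil-like cells. What part free neutrophil RNA had in the Lcn2 values was not tested. When cells with 3 or more UMIs of 9 neutrophil markers were left out, 12 of the 15 calls were kept, Saa3 and Serpina3n in basal keratinocyte-like cells were lost (log2 fold changes of 1.10 and 1.40), and Saa3 in dendritic-like cells was not tested. Lcn2 was 5.39 in fibroblast-like and 1.30 in lymphatic endothelial-like cells on the log2 scale, close to its values with all cells. In macrophage or monocyte-like cells Lcn2 was 2.89 in place of 4.54, and Hp was 1.99 in place of 3.11. The 9 markers include Trem1, which was at 57.4 to 233 CPM in dendritic-like cells. Macrophage or monocyte-like cells had Trem1 at 17.7 CPM in the first day 1 control and 117 CPM in the first day 2 expanded library. The cut thus also left out cells of both classes that held such transcripts, whatever their source. What part this loss of cells had in the changed values was not tested.

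Saa1 and Saa2, the near-identical serum amyloid genes, were both called in fibroblast-like cells. In fibroblast-like cells Saa1 was at 1.67 and 5.04 CPM at day 1, 1.73 and 18.1 at day 2 and 6.80 at day 4 in controls, and at 98.9 and 404, 63.3 and 177, and 179 CPM in expanded skin. Saa2 was at 0.611, 0.45, 0.247, 3.41 and 2.98 CPM in the same controls and at 18.0, 89.9, 14.1, 54.9 and 25.6 CPM in the expanded libraries. Neither gene overlapped between the arms, with log2 fold changes of 4.67 ± 0.72 for Saa1 and 4.58 ± 0.75 for Saa2. The highest levels were in cluster 29, for which Saa1 ranked among the leading genes although it was not used in the clustering. Its Saa1 level was 3.62, 32.6, 12.7, 99.3 and 24.5 CPM in controls and 1031 and 2189 at day 1, 522 at day 2 and 610 CPM at day 4 in the expanded libraries with 20 cells. An unnamed cluster led by Coch and Tnn (cluster 6) went from at most 25.02 CPM to 102 to 313 CPM of Saa1, while its Saa2 stayed at or under 12.3 CPM.

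In dermal papilla-like cells more UMIs were assigned to Saa2, at 19.3, 14.0 and 43.8 CPM in controls and 573, 96.5, 402 and 277 CPM in expanded skin, against 0, 0 and 2.66 and 108, 3.64, 144 and 116 CPM for Saa1. In fibroblast-like cells more were assigned to Saa1 in all 10 libraries. Since the split between the copies is uncertain, the difference in balance was not tested. In basal keratinocyte-like cells the pair was high in 1 library, day 4 expanded, at 327 CPM for Saa1 and 156 CPM for Saa2. The other 4 expanded libraries were at 1.19 to 87.4 CPM for Saa1 and the controls at 0 to 18.5 CPM, so Saa1 was not called (log2 fold change 2.24 ± 0.91), and Saa2 had too few counts to test. In that day 4 library 1572 of the 3014 Saa1 UMIs and 988 of the 1435 Saa2 UMIs were in a single cell each.

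Saa3, the extrahepatic serum amyloid, was the most abundant of the genes in expanded skin and was called in 4 of 5 classes tested. In fibroblast-like cells it was at 17.6 and 94.5 CPM at day 1, 19.4 and 642 at day 2 and 404 at day 4 in controls, and at 498 and 2042, 2299 and 2777, and 3901 CPM in expanded skin. Only the first day 1 expanded library lay within the control range, and the log2 fold change was 3.46 ± 0.79. Within cluster 7 (Cilp, Lox) the controls reached 1873 CPM in the second day 2 library and the expanded libraries ranged from 826 to 5074 CPM. Cluster 6 went from 0 to 103.96 CPM in controls to 1178 to 3804 CPM in expanded libraries, without overlap. Dermal papilla-like cells went from 1.61, 40.8 and 289 CPM to 57.0, 637, 1955 and 1472 CPM.

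Saa3 was also raised in macrophage or monocyte-like and dendritic-like cells. In neutrophil-like cells the arms overlapped, at 0 to 166 CPM in controls and 8.42 to 275 CPM in expanded skin. In Langerhans-like cells the median was 4.24 CPM in controls and 4.00 CPM in expanded skin. Macrophage or monocyte-like cells were at 2.96 and 19.1, 4.65 and 15.5, and 22.1 CPM in controls and at 877 and 378, 361 and 255, and 184 CPM in expanded skin (log2 fold change 4.78 ± 0.61, no overlap). Cluster 8, the Ccl8 and Cd209f cluster, had 0.916 to 23.1 CPM in 5 control libraries and 497 and 471 CPM in the 2 expanded libraries with 20 of its cells. In cluster 3 the arms did not overlap (20.9 to 136 and 235 to 934 CPM), and in cluster 11 they did (0 to 20.2 and 16.7 to 1366 CPM). Dendritic-like cells, a single cluster, went from 1.26 to 5.40 CPM to 7.05 to 35.5 CPM (log2 fold change 2.77 ± 0.40, no overlap). These were 136 UMIs in 411 expanded cells. Their expanded mean of 21.9 CPM lay between those of T cell-like (14.6) and pericyte or smooth muscle-like cells (33.1). What part free Saa3 RNA of other classes had in such low values was not tested. Basal keratinocyte-like cells were low in Saa3 in both arms, at 1.21 to 4.43 and 0.428 to 17.6 CPM (log2 fold change 2.01 ± 0.49), and that call was lost without any one of 7 libraries, both day 1 controls (1.69 and 1.87), both day 1 expanded libraries (1.69 and 2.06), the first day 2 control (2.03), the day 4 control (2.32) and the day 4 expanded library (2.31).

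**Figure D3:**
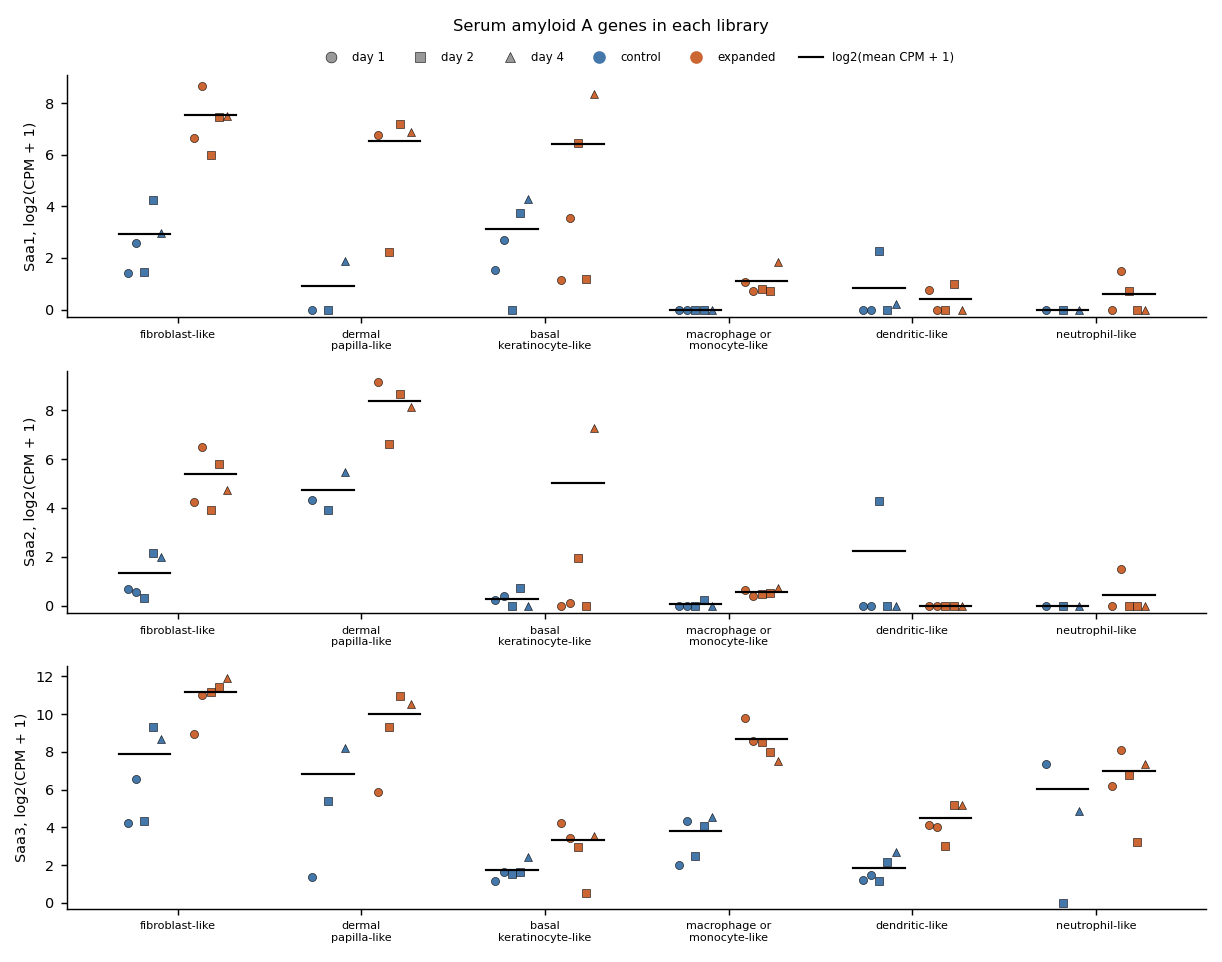
Points are log2(CPM + 1) of Saa1, Saa2 and Saa3 in each library (shape by day, colour by arm) for 6 cell classes, with bars at log2(mean CPM + 1). Saa1 and Saa2 separate the arms in fibroblast-like cells, Saa2 exceeds Saa1 in dermal papilla-like cells, and Saa3 also separates the arms in macrophage or monocyte-like and dendritic-like cells.

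Serpina3n, the secreted inhibitor of granzyme B and elastase, was present in most fibroblast-like cells of both arms. In fibroblast-like cells 85.3% of control and 81.6% of expanded cells had a UMI, and the class held 92.0% of the Serpina3n UMIs of control skin and 52.6% of those of expanded skin, where unnamed clusters held 28.5%. Its level there was 616 and 591, 378 and 915, and 697 CPM in controls and 1236 and 1131, 872 and 668, and 566 CPM in expanded skin. The arms overlapped and the difference was not called (log2 fold change 0.24 ± 0.24). Both day 1 expanded libraries were above all controls, and the second day 2 and the day 4 expanded libraries were below their controls. The class mean also mixes clusters. In cluster 7 the expanded libraries with 20 cells were at 747 to 1349 CPM against 164 to 820 CPM in controls, while cluster 14 (Ccl19, C3), the cluster with the highest control level, at 658 to 1538 CPM, was 13.9% of control and 3.94% of expanded cells of the class.

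Outside fibroblast-like cells Serpina3n was called in lymphatic endothelial-like, pericyte or smooth muscle-like and basal keratinocyte-like cells. Lymphatic endothelial-like cells went from 151 and 200, 9.55 and 279, and 151 CPM to 1954 and 820, 395 and 726, and 325 CPM, without overlap (log2 fold change 1.96 ± 0.40). Pericyte or smooth muscle-like cells went from 126 and 152, 51.3 and 95.0, and 85.8 CPM to 351 and 458, 162 and 192, and 198 CPM, also without overlap (1.23 ± 0.16). Schwann-like cells, with 4 control libraries, were at 314, 175, 282 and 180 CPM in controls and at 1342, 954, 838, 322 and 204 CPM in expanded skin. The 4 expanded libraries with a control of their day and round were above it, but the arms overlapped and the log2 fold change of 1.16 ± 0.35 was not called in a class where 0.213% of genes were. Basal keratinocyte-like cells were at 1.87 to 32.0 and 21.9 to 128 CPM (1.44 ± 0.37), a call that was lost without either day 1 control (1.51 and 1.13), either day 1 expanded library (1.13 and 1.51), the first day 2 control (1.37) or the second day 2 expanded library (1.32). In endothelial-like cells the levels were alike in both arms, 41.6 ± 19.2 (SD, n = 5) and 42.6 ± 34.3 CPM, and the log2 fold change was -0.29 ± 0.37. In expanded fibroblast-like, lymphatic endothelial-like, Schwann-like and pericyte or smooth muscle-like cells both day 1 libraries exceeded the day 4 library.

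Serpina3g, the intracellular cathepsin inhibitor, was called by edgeR in none of 6 classes tested. In macrophage or monocyte-like cells it was at 2.66 to 23.0 CPM in controls and 0 to 8.83 CPM in expanded skin (log2 fold change -1.55 ± 0.58), which was called by DESeq2 (-1.66) and by edgeR without the second day 2 expanded library (-2.20). Fibroblast-like cells were at 15.1 to 29.8 CPM in controls and 16.2 to 35.0 CPM in expanded skin (log2 fold change -0.12 ± 0.17), and basal keratinocyte-like cells at 10.6 to 28.0 and 16.8 to 34.2 CPM (0.43 ± 0.22). Lymphatic endothelial-like cells had 0, 17.0, 0, 13.7 and 8.67 CPM in controls and 18.8 to 29.7 CPM in expanded skin. These ranges did not overlap, but the difference (1.14 ± 0.41) was not called. The highest levels were in 2 unnamed clusters, cluster 23 (Gzmc, Xcl1), at 26.7 to 109 CPM in controls and 45.8 to 131 CPM in expanded libraries, and cluster 36 (Mcpt8, Il4), at 70.6 and 466 CPM in the 2 expanded libraries with 20 of its cells.

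Hp, the hemoglobin scavenger, had its highest mean over libraries in neutrophil-like cells, although the highest single value was in fibroblast-like cells of the day 4 expanded library. Neutrophil-like cells were at 618, 1184 and 1025 CPM in the control libraries and at 1805, 1110, 910, 1384 and 1137 CPM in the expanded ones. Macrophage or monocyte-like cells went from 6.098 and 14.2, 15.96 and 36.5, and 19.8 CPM to 99.9 and 59.7, 160 and 343, and 222 CPM (log2 fold change 3.11 ± 0.32, no overlap). Within cluster 3, which fills most of that class in expanded skin, Hp was 99.3 to 286 CPM in 4 control libraries and 75.9 to 394 CPM in 5 expanded libraries, so the arms overlapped there. In cluster 11 it was 2.34 to 20.1 and 2.30 to 39.97 CPM, and in cluster 8 at most 2.88 CPM. In fibroblast-like cells Hp was at 4.68 and 0.495 at day 1, 40.3 and 51.4 at day 2 and 59.4 CPM at day 4 in controls, and at 0.484 and 8.46 at day 1, 34.0 and 509 at day 2 and 2404 CPM at day 4 in expanded skin. That difference was not called (2.20 ± 1.00), and it was called when cells were thinned to 2000 UMIs and without the first day 1 library of either arm.

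**Figure D4:**
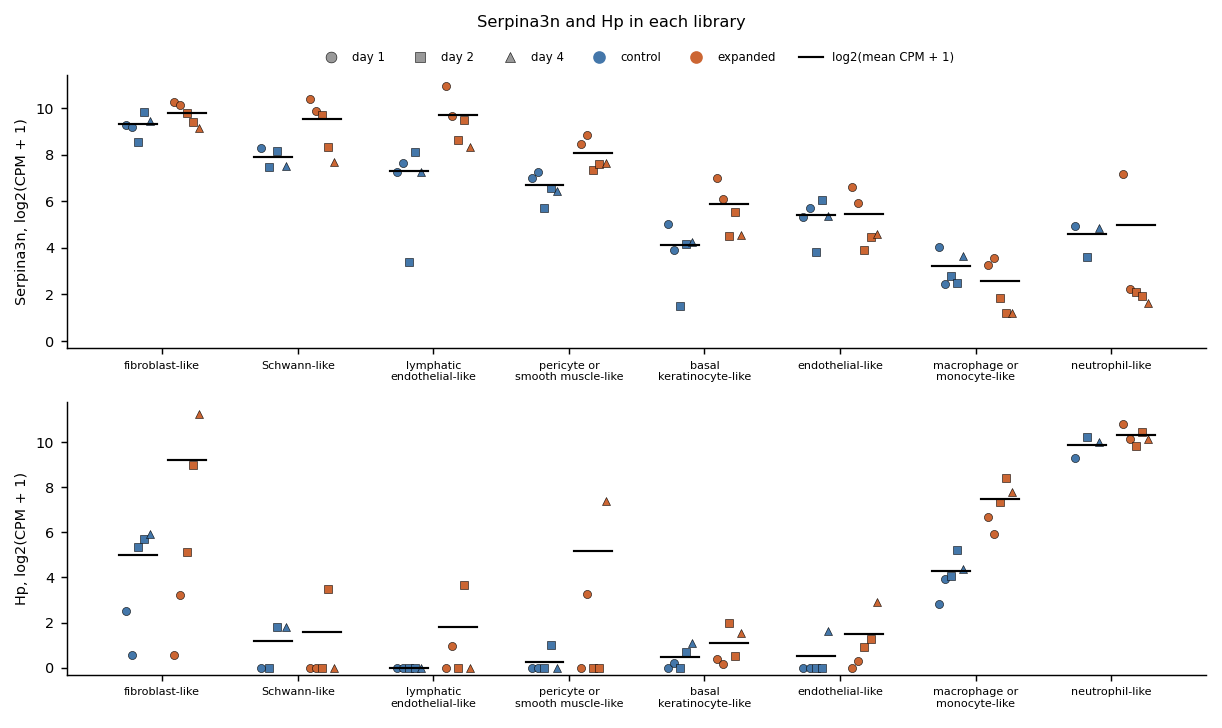
Points are log2(CPM + 1) of Serpina3n and Hp in each library (shape by day, colour by arm) for 8 cell classes, with bars at log2(mean CPM + 1). Serpina3n overlaps between the arms in fibroblast-like cells and does not in lymphatic endothelial-like and pericyte or smooth muscle-like cells, and Hp in fibroblast-like cells is highest in the day 4 expanded library.

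Orm1 was highest in suprabasal keratinocyte-like cells. Suprabasal keratinocyte-like cells were at 42.8, 61.6, 108 and 93.9 CPM in 4 control libraries and at 30.3, 72.4 and 92.7 CPM in 3 expanded ones, with a UMI in 37.6% and 46.9% of cells. In basal keratinocyte-like cells it was at 3.46 and 4.14, 7.47 and 12.0, and 11.1 CPM in controls and at 3.64 and 11.7, 41.98 and 9.84, and 112 CPM in expanded skin. The day 4 and the first day 2 expanded libraries stood above the rest, and the difference was not called (log2 fold change 1.72 ± 0.50). Basal and suprabasal keratinocyte-like cells held 36.1% and 40.9% of the Orm1 UMIs of control skin and 76.4% and 17.4% of those of expanded skin. Dermal papilla-like and fibroblast-like cells held 10.3% and 9.03% in control skin and 0.32% and 1.495% in expanded skin. Such shares move with the cell make-up. Basal keratinocyte-like cells were 6.74% of control and 16.2% of expanded cells, and fibroblast-like cells were 33.7% and 9.43%. Mean Orm1 in fibroblast-like cells was 0.428 CPM in controls and 1.31 CPM in expanded skin. In dermal papilla-like cells Orm1 was at 9.3 to 14.5 CPM in 3 control libraries and 0 to 3 CPM in 4 expanded ones. Those ranges did not overlap, and the class was in too few libraries to test. Reads of Orm2 and Orm3 may be among the Orm1 UMIs.

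How a level was spread over cells differed between the genes. In lymphatic endothelial-like cells of the 5 expanded libraries the 5 highest cells held 14.9% to 40.6% of the Lcn2 UMIs. In fibroblast-like cells of the same libraries the 5 highest held 34.5% to 85.4% of the Lcn2, 27.8% to 89.1% of the Saa1 and 27.9% to 83.2% of the Saa3 UMIs. In the 4 expanded libraries with at least 20 Hp UMIs in this class the 5 highest cells held 90.3% to 100% of them. In the day 4 expanded library 27 of 160 fibroblast-like cells had an Hp UMI, 1 cell held 1925 of the 7411 UMIs and 5 cells held 93.5%. Some high class values rested on 1 cell. A single cell held 254 of 260 Hp UMIs in T cell-like cells of the day 4 expanded library, 492 of 494 Saa3 UMIs in lymphatic endothelial-like cells of the second day 2 expanded library, all 64 Saa1 UMIs in Langerhans-like cells of the first day 1 expanded library and 146 of 160 Saa3 UMIs in Schwann-like cells of the day 4 control. Whether such cells were doublets was not tested beyond the doublet removal.

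**Figure D5:**
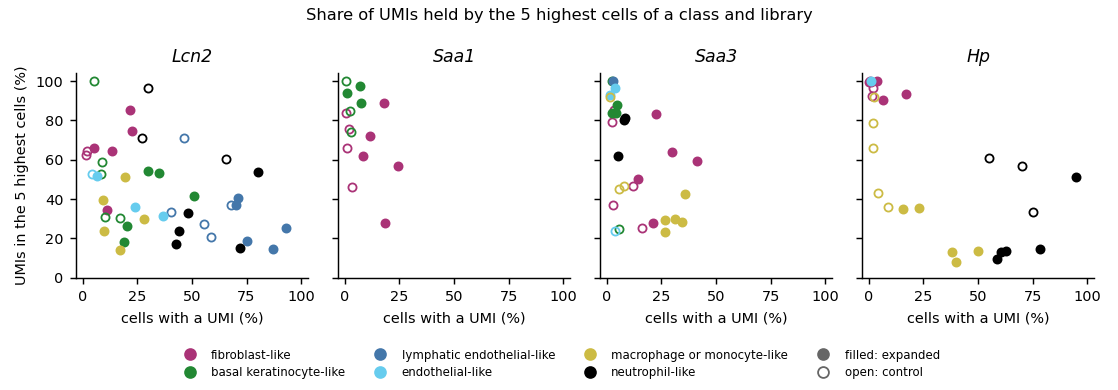
Each point is 1 class in 1 library with at least 20 UMIs of the gene, with the share of cells that had a UMI (x axis, %) against the share of UMIs in the 5 highest cells (y axis, %), filled for expanded and open for control libraries. Lcn2 in lymphatic endothelial-like cells lies to the lower right, spread over most cells. Hp in fibroblast-like cells of expanded libraries lies to the upper left, in few cells, and Saa1 in the same cells covers a wide range of the y axis.

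Whether the difference between arms changed with day was tested with the interaction of day and arm. None of 28 pairs of gene and class was called by edgeR, and 3 had an unadjusted p under 0.05. At most 1 gene of any class was called at all, 0.00862% in basal keratinocyte-like and 0.0106% in endothelial-like cells and 0% in dendritic-like, fibroblast-like, lymphatic endothelial-like, macrophage or monocyte-like, pericyte or smooth muscle-like and T cell-like cells, with 1 library per arm at day 4. The smallest p was for Lcn2 in endothelial-like cells (edgeR adjusted p = 0.768). There the log2 fold change differed by -5.74 ± 1.31 between day 2 and day 1 and by -3.97 ± 1.1997 between day 4 and day 1. Without the first day 1 expanded library the edgeR adjusted p for this gene was 0.038. For Lcn2 in basal keratinocyte-like cells the fold change was larger by 1.52 ± 0.53 at day 2 and by 2.08 ± 0.62 at day 4 on the log2 scale (edgeR adjusted p = 0.457).

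Cell hashing let 28 mice in 8 libraries be separated, which gives animals as units within each pair of libraries. Among 14 pairs tested, 8 were called by edgeR, all higher in expanded skin. They were 3 of 3 in macrophage or monocyte-like cells (46.1% of all genes called), 3 of 5 in fibroblast-like (44.1%), 2 of 5 in basal keratinocyte-like (18.2%) and 0 of 1 in endothelial-like cells (13%). In macrophage or monocyte-like cells Lcn2 had a median of 1.39 CPM and a highest value of 11.5 CPM over 14 control mice and 34.8 CPM over 12 expanded mice, whose lowest was 6.04 CPM. Saa1 in fibroblast-like cells had a median of 2.74 CPM over 13 control mice and 122 CPM over 8 expanded mice. Hp in fibroblast-like cells ranged from 0 to 435 CPM in control and from 0 to 7146 CPM in expanded mice, with medians of 0.558 and 19.6 CPM, and was not called. Serpina3n in fibroblast-like cells, not called over libraries, was called over mice (log2 fold change 0.59 ± 0.23). In basal keratinocyte-like cells Serpina3n, called over libraries, was not called over mice (0.28 ± 0.41), and Orm1, not called over libraries, was called over mice (1.48 ± 0.47). The mice of 1 arm and round shared a single droplet reaction, so they are not fully independent.

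Other genes of the acute phase pathway were taken from lists written with earlier results known. Of 27 other acute phase genes, 15 were tested in fibroblast-like cells, and 8 rose and 3 fell with a median log2 fold change of 1.01, against 0.01 for all genes, of which 34.8% were called. Lrg1, a leucine-rich glycoprotein, rose by 3.81 ± 0.67 (edgeR adjusted p = 0.0017), the metalloproteinase inhibitor Timp1 by 3.17 ± 0.42 (adjusted p = 0.00049), the endotoxin co-receptor Cd14 by 1.93 ± 0.43 and the metalloreductase Steap4 by 1.72 ± 0.29 on the log2 scale. Lymphatic endothelial-like cells (11.9% of all genes called) had 4 of 13 tested higher (Timp1, Steap4, Lrg1 and Cfb, by 1.43 to 1.64) and C3 lower. In macrophage or monocyte-like cells (22.1%) 3 of 14 rose and 4 fell, with Lrg1 at 2.60 ± 0.40 and the ferroxidase Cp at -4.93 ± 0.67. Basal keratinocyte-like cells (7.87%) had none higher and 3 of 12 lower (C3, Fn1 and Serping1).

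Regulators of the pathway were described in the same way. Of 13 transcription factors and feedback genes, all tested, none rose and 5 fell in fibroblast-like cells (34.8% of all genes called), 6 in lymphatic endothelial-like (11.9%), 7 in endothelial-like (12%), 4 in macrophage or monocyte-like (22.1%), 7 in dendritic-like (17%) and 10 in pericyte or smooth muscle-like cells (18.8%). In basal keratinocyte-like cells (7.87%) Bcl3 rose by 0.51 ± 0.14 and Pim1 fell by 1.04 on the log2 scale. The shares in fibroblast-like and macrophage or monocyte-like cells were near those of all genes. In fibroblast-like cells Cebpd fell by 0.79 and Cebpb by 0.52 on the log2 scale, and in lymphatic endothelial-like cells the STAT3 target Pim1 went from 514 ± 224 to 224 ± 75.2 CPM (SD, n = 5). Among cytokines and receptors, fibroblast-like cells had 4 of 13 higher and 1 lower. The interleukin 6 family cytokine Il11 went from 2.87 ± 1.38 to 150 ± 189 CPM (log2 fold change 4.18 ± 0.99, edgeR adjusted p = 0.0079), and the receptor Il6ra changed by -1.24 ± 0.18. Lymphatic endothelial-like cells had 1 of 7 lower, Il6 itself, from 52.6 ± 49.2 to 7.54 ± 7.56 CPM. Of the proteins' own receptors and targets, 7 were tested in fibroblast-like cells, and 1 rose and 2 fell (34.8% of all genes called). The serum amyloid receptor Scarb1 changed there by 1.02 ± 0.16 and the candidate lipocalin receptor Slc22a17 by -0.97 ± 0.22. Tlr2 was the other gene that fell. In macrophage or monocyte-like cells (22.1%) 2 of 9 tested rose and 1 fell. The genes called there were Mmp9, Ctsl and the serum amyloid receptor Fpr2 (0.99 ± 0.24).

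Across 31 profiles of class and arm, the genes whose mean level followed each acute phase gene most closely were found among 13212 others, by Pearson's r of log2(mean CPM + 1). The profiles share libraries and the values are a description. For Lcn2 the nearest were Klf10, Chil1 and Lrg1 (r = 0.70 each), then Ifitm2 and Grina (0.69 and 0.68). For Saa3 they were Dram1 (0.81), Hp (0.78), Prg4, Clmp and Cdh11, and for Hp they were Por (0.81), Gm14963, Pxk, Saa3 and Il12a. Saa1 was nearest to Slc1a3 (0.69) and Saa2 (0.68), followed by Postn, Ltbp2 and Cntfr. Saa2 was nearest to Cemip (0.86), Kng2, the agouti gene (symbol a), St6galnac5 and Draxin. Serpina3n followed B4galt2, Tnxb, Npdc1, Lama4 and Fkbp10 (0.84 to 0.85), Serpina3g followed H2-T22 (0.74), F2rl1, Galt, Pwwp2b and Cyb561, and Orm1 followed the keratinocyte genes Rapgefl1 (0.94), Epn3, Efna3 and H60c. Among the 8 genes themselves r ranged from -0.18, for Serpina3g and Hp, to 0.78, for Saa3 and Hp.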

How the data were processed

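Each deposited matrix holds whole UMI counts of genes in cell barcodes, and its header names Cell Ranger 6.1.2. The genome build was mm10, per the submitters' processing notes. The annotation and the strand setting are not given in the sources used here. Barcodes with at least 500 UMIs, 200 genes and at most 10% mitochondrial UMIs were kept, and doublets were removed with Scrublet in scanpy 1.11.5 and, in 8 hashed libraries, with Seurat 5.3.0 HTODemux, which also assigned 28 mice. Clustering used 2000 variable genes without the 8 genes, 30 principal components and Leiden resolution 1. Counts were summed per library and class (20 or more cells, 4 or more libraries per arm) and tested with edgeR 4.0.16 (quasi-likelihood, TMM, Benjamini-Hochberg over all genes of the class) in R 4.3.3, with DESeq2 1.42.0 as an alternative. The edgeR script was tested on simulated data. The 8 genes and the lists were chosen with earlier results of these data known. All 8 are named whatever their values, and of each list up to 4 called genes with the largest absolute log2 fold change. Of the genes nearest in pattern, up to 5 are named for each, and 1 is not reported here. Library totals were 17726739 to 75470722 gene UMIs. Each library pooled the mice of 1 arm, so p-values over libraries measure the spread between such pools. Same-numbered libraries shared a sequencing round, per the labels, and the correlation of their deviations was -0.01 to 0.32 over 20 pairs of class and day. Intervals were not computed for shares of cells.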

Additional observations from a re-analysis of the deposited data

Results flagged for a closer look

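In 7 of 74 groups of libraries looked at, 1 library lay far from the others of its arm. The cut used flags about 1 in 20 groups only for independent, normally distributed values. The libraries of an arm came from different days and the groups share libraries, so the count is not set against that rate. Lcn2 in basal keratinocyte-like cells was 143.5 CPM in the day 4 control against 33.7 to 63.2 in the other controls. Saa1 in the same class was 327 CPM in the day 4 expanded library against 1.19 to 87.4. Lcn2 in endothelial-like cells was 492.1 CPM in the second day 1 expanded library against 3.56 to 136. Hp in fibroblast-like cells was 2404 CPM in the day 4 expanded library against 0.484 to 509. Saa3 in macrophage or monocyte-like cells was 877.4 CPM in the first day 1 expanded library against 184 to 378, while over all cells the same library had the lowest expanded level, 296.8 against 527 to 581 CPM. Orm1 over all cells was 32.18 CPM in the day 4 expanded library against 1.70 to 7.66.

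Serpina3g was lower in expanded macrophage or monocyte-like cells in every pair of libraries (log2 fold change -1.55) and higher in lymphatic endothelial-like cells in every pair (1.14). Neither was called by edgeR, the macrophage value was called by DESeq2 (-1.66) and by edgeR without the second day 2 expanded library (-2.20), and the difference between the classes was not tested. What part the changed cluster make-up of the macrophage or monocyte-like class had in its value was not tested either.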

How the results depend on the processing

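The count of calls within classes was 15 of 29 pairs. It was 15 with DESeq2 size factors, with DESeq2 (14 of them the same pairs), with at most 5% mitochondrial UMIs and with at least 50 cells, 13 of 18 after thinning to 2000 UMIs, 12 of 28 without cells of 3 or more neutrophil marker UMIs and 13 to 17 with 1 library left out. Without the filter on low counts it was 38 of 86. Over all cells the count was 5, 6 with DESeq2 or without the filter, and 4 to 7 with 1 library left out. With the replicate block of day and round the counts were 15 and 5, and every main call was kept. No replicate block was fitted for the day test or for mice. The day test had 0 calls, 15 of 72 without the filter and 0 to 1 with 1 library left out. Over mice the count was 8, and 28 of 55 without the filter. The share of all genes called under each of these other settings is not given here, so no conclusion about the 8 genes is drawn from these counts. The cause of the larger counts without the filter was not tested. No fold change reversed. Of those within classes, 130 stayed called and 20 did not when 1 library was left out, and 113 and 3 under the other settings. Over all cells these were 44 and 6 with 1 library left out. The 3 under the other settings were Lcn2 in endothelial-like cells with DESeq2 (1.62), and Saa3 (1.10) and Serpina3n (1.40) in basal keratinocyte-like cells without cells of neutrophil markers. Day 4 had 1 library per arm.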
